A study of Homo sapiens with 4 samples.

Results

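The 10 enzyme genes of serine synthesis and one-carbon (folate-bound) metabolism followed here in nascent RNA were PHGDH, PSAT1, PSPH, SHMT1, SHMT2, MTHFD1, MTHFD1L, MTHFD2, ALDH1L2 and TYMS. They were chosen by symbol, and each was read from the entry for its own strand, which gave 10 genes of 57428 with such an entry. All 10 had enough counts to be among the 21238 genes tested. The cells were U2OS, a human osteosarcoma line, stably overexpressing the decapping cofactor DCP1a fused to GFP and kept under G418 selection in all groups, controls included. Sodium was at 300 mM in the hypertonic medium, reached by adding a concentrated phosphate buffer with salt, and at 150 mM in the isotonic one, to which an equal volume of the same buffer at normal strength was given. Both groups were labelled with 2 mM bromouridine, a uridine analogue, for 30 min and had no chase, so the RNA pulled down by antibody (Bru-seq) is RNA made in that window. Each group had 2 libraries. The labels do not give the length of the exposure or say whether replicates came from separate cultures, so the p-values rest on the spread between 2 libraries a group, and that spread may be technical. In such bulk samples fewer cells transcribing a gene and less RNA per cell cannot be told apart.

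These enzymes form a connected route. PHGDH, PSAT1 and PSPH turn a glycolytic intermediate into serine in the cytosol. SHMT1 in the cytosol and SHMT2 in mitochondria split serine into glycine and a carbon unit carried on folate. MTHFD2, MTHFD1L and ALDH1L2 process that unit in mitochondria, MTHFD1 does so in the cytosol, and the units serve purine and thymidylate synthesis, the latter through TYMS. Proliferating tumour cells depend on the route, and ATF4, a transcription factor of amino acid stress, is known to activate many of its genes.

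The promoters of 3 members are shown: MTHFD2 and TYMS had the lowest fold changes in hypertonic medium, and MTHFD1L is the one with a match to the ATF4-type element. Each line gives the 250 bases before a RefSeq transcript start, 5′ to 3′ on the gene's strand (plus for all 3), from RefSeq on GRCh38.p14. The bases lie at chr2:74198365-74198614 for MTHFD2, chr18:657403-657652 for TYMS and chr6:150866236-150866485 for MTHFD1L. MTHFD1L has 4 starts in the table, and the first listed was used. That start, at 150866486, lies downstream of the RefSeq gene start at 150865702. Its 250 bases, with their motif matches, are therefore inside the counted gene. Capitals mark matches to the motifs described after the sequences.
MTHFD2: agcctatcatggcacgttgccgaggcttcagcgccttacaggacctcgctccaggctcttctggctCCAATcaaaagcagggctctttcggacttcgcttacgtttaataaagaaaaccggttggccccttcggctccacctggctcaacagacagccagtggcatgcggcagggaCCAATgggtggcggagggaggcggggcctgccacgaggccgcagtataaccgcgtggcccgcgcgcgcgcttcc
TYMS: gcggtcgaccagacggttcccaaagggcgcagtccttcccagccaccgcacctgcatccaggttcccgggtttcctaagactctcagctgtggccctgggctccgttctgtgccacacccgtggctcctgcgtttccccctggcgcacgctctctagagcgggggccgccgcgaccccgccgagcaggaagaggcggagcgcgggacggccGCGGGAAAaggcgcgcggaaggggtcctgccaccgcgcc
MTHFD1L: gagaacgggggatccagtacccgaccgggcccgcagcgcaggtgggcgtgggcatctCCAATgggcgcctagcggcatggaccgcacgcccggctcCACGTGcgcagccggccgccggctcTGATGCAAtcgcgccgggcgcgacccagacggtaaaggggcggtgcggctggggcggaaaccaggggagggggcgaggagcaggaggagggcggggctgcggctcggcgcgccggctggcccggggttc
Motifs were searched on both strands in the 250 bases before each start. CCAAT, the box bound by NF-Y, matched at 184 and 74 bases before the MTHFD2 start. It was found in 6 of the 7 members with a promoter in the table and in 32.0% of all 35116 promoters there. TGATGNAA, the core of the element through which ATF4 acts with C/EBP partners, matched in 1 member, MTHFD1L, at 129 bases before its start, and in 3.14% of all promoters. CACGTG, the E-box read by MYC, matched in MTHFD1L at 154 and in MTHFD1 at 15 bases before the start, and in 6.34% of all promoters. TTTCCCGC, an E2F-type motif, matched on the opposite strand of TYMS at 39 bases before the start and in 1.39% of all promoters. The other E2F-type forms TTTGGCGC, TTTGGCGG and TTTCCCGG, the last sharing all but its final letter with TTTCCCGC, matched in no member and in 0.550%, 0.538% and 1.26% of all promoters. PSPH, SHMT2 and ALDH1L2 had no entry in the table.

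The libraries held 23048409 to 44888307 counts, of which 20870648 to 41932649 lay on the sense strand of the genes used. Markers of mesenchymal and bone cells were checked against the label: 3 of 9 (VIM, SPARC and COL1A1) reached 1 RPKM in the isotonic mean. RUNX2, COL5A1, COL1A2, ALPL and BGLAP stayed below it, and TWIST1 was listed at 0. RPKM, a count scaled by gene length and library, summed over these 9 markers to 27.5 and 20.7 in isotonic replicates 1 and 2. The sums were 36.01 and 26.7 in hypertonic replicates 1 and 2. Most of the isotonic sums came from VIM alone, with 20.6 and 13.8 RPKM. The 6 epithelial markers summed to 1.70 and 1.89 against 2.31 and 4.66 RPKM, with 1 of 6 at 1 RPKM or more in the isotonic mean. The 5 blood markers (CD3E and HBB at 0 in all libraries) and 3 endothelial markers stayed at or below 0.206 RPKM in sum. The part of these marker levels in the results was not tested.

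Before the treatment is considered, the isotonic libraries show how unequally the route was transcribed. MTHFD2 led with 7.44 ± 1.52 RPKM (SD, n = 2), and TYMS followed with 7.04 ± 1.95 RPKM, a difference within their spread. MTHFD1L with 2.85 ± 0.156 RPKM and MTHFD1 with 2.69 ± 0.0883 RPKM came next and also overlapped each other, but lay below both libraries of TYMS. These 4 were the members with at least 1 RPKM in the isotonic mean. PSAT1 (0.757 ± 0.391 RPKM), SHMT2 (0.749 ± 0.116), PHGDH (0.663 ± 0.336), PSPH (0.481 ± 0.198) and SHMT1 (0.316 ± 0.0615) formed a run in which each overlapped the next. ALDH1L2 was lowest with 0.159 ± 0.0656 RPKM, and its libraries lay below both of SHMT1.

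The level of PHGDH depends on where its gene is taken to begin. Its deposited entry spans 95.8 kb, and 63.5 kb of that, 66.3%, lies before the RefSeq gene start at chromosome 1, position 119711934. If all its counts fell inside the RefSeq span of 32.3 kb, its isotonic level would be 1.97 ± 0.997 RPKM, an upper bound chosen after seeing the data. That mean lies between the means of MTHFD1 and PSAT1. Its libraries, at 2.67 and 1.26 RPKM, would overlap those of MTHFD1 at 2.62 and 2.75 RPKM. For the other 9 members at most 6.85% of the entry preceded the RefSeq start.

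**Figure D1:**
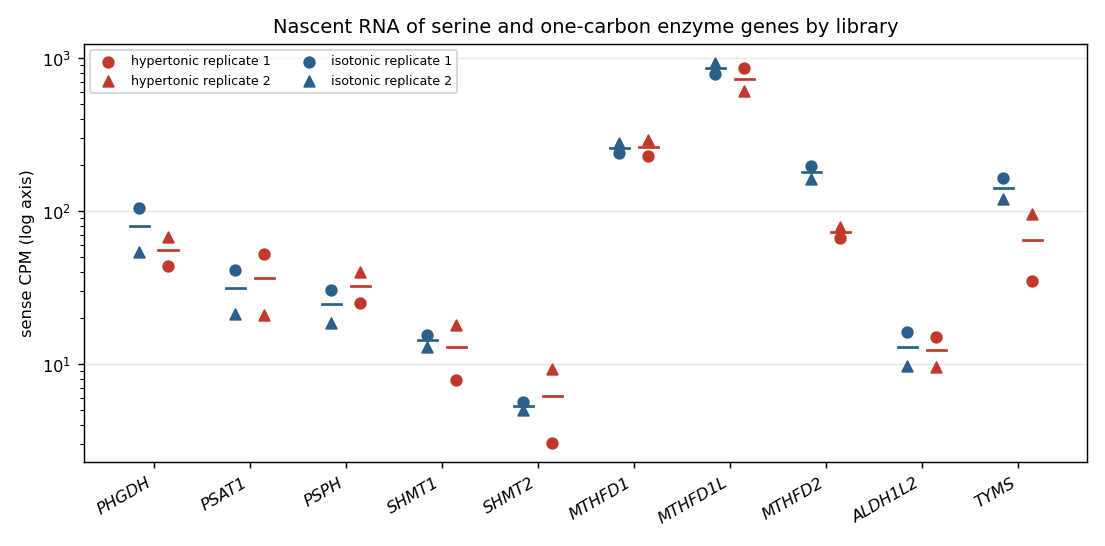
Sense CPM (log axis) of the 10 members in each library; red symbols are hypertonic and blue isotonic, circles replicate 1 and triangles replicate 2, and short lines are group means of 2 libraries. MTHFD2 and TYMS are the members whose hypertonic symbols all lie below the isotonic ones.

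Hypertonic against isotonic medium separated 2 of the 10 members. For MTHFD2 and TYMS each isotonic value exceeded each hypertonic one in CPM, counts scaled to library size with TMM factors. The groups overlapped for the other 8. Among all tested genes 17.5% lay below in this way, and among the 4828 expressed protein-coding genes, those with a mean of at least 1 RPKM, 38.7% did. The members' 2 of 10 lies close to the first share. The second covers an unlike set, since only 4 members reached 1 RPKM in the isotonic mean. MTHFD2 and TYMS are among those 4. No member lay above in both hypertonic libraries, where the background was 22.5% of tested and 5.32% of expressed protein-coding genes.

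No member passed the test. In edgeR's quasi-likelihood test with Benjamini-Hochberg adjustment over all tested genes, 0 of 10 members and 0% of the 21238 genes had an adjusted p under 0.05, and the lowest adjusted p of any gene was 0.192. At an unadjusted p under 0.05 there was 1 member, MTHFD2, which was lower; 2.01% of tested genes and 6.61% of expressed protein-coding genes were lower at that level. DESeq2 called 3.44% of tested genes and 0 members, and limma-voom called 0 of either. The members' median log2 fold change was -0.11, with 6 negative and 4 positive, beside 0.04 over all tested genes. It was -0.33 over expressed protein-coding genes, a set with a minimum of 1 RPKM. The 4 members at that level in the isotonic mean were MTHFD2 (-1.30), TYMS (-1.13), MTHFD1L (-0.22) and MTHFD1 (0.02). Negative fold changes made up 47.6% of tested and 77.2% of expressed protein-coding genes. Under total-count and upper-quartile scaling the members' median turned to 0.11 and 0.075, and the median of all genes moved to 0.26 and 0.23.

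In 9 of 10 members the hypertonic libraries differed from each other by more than the groups did, MTHFD2 being the exception. Hypertonic replicate 1 lay below replicate 2 in 7 members and above it in 3, PSAT1, MTHFD1L and ALDH1L2. The log2 fold change was smaller than its standard error in 7 members. Without hypertonic replicate 2, edgeR's quasi-likelihood test gave MTHFD2 and TYMS adjusted p-values of 0.00753 and 0.00285, next to 21.4% of tested genes called in either direction and 10.3% called lower. That setting assumes that the lone hypertonic library varies like the isotonic pair, and the members' median was then -0.49.

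**Figure D2:**
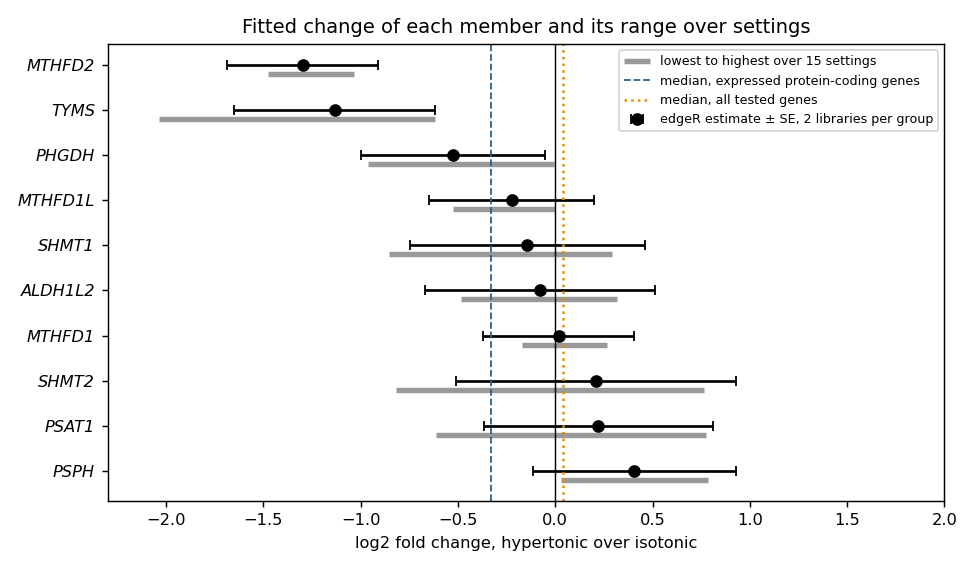
Log2 fold change of each member, hypertonic over isotonic, as the edgeR estimate with its standard error (2 libraries per group); grey bars span the lowest to the highest value over 15 settings and vertical lines mark the medians of expressed protein-coding genes (-0.33) and of all tested genes (0.04). MTHFD2, TYMS, PHGDH and MTHFD1L stay negative over the whole range, the last 2 reaching up to -0.0086 and -0.00036. PSPH stays positive, and 5 members cross 0.

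Serine synthesis itself showed no common direction. PHGDH, the first and committing enzyme of the branch, measured 43.7 and 67.6 CPM in hypertonic replicates 1 and 2 and 106 and 54.6 CPM in isotonic replicates 1 and 2. The hypertonic values bracket the lower isotonic one, and isotonic replicate 1 stood alone at the top. Its log2 fold change was -0.53 ± 0.47 (SE, n = 2 per group; edgeR, adjusted p = 0.849), and without isotonic replicate 1 it was -0.0086.

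PSAT1, the aminotransferase of the second step, measured 52.2 and 21.1 CPM in hypertonic medium, against 41.6 and 21.2 CPM in isotonic medium. In each group replicate 1 lay above replicate 2, 2.48-fold in hypertonic and 1.96-fold in isotonic medium, and the groups overlapped. The log2 fold change was 0.22 ± 0.59 (edgeR, adjusted p = 0.990), -0.61 without hypertonic replicate 1 and 0.73 without hypertonic replicate 2. PSPH, the phosphatase that releases serine, measured 25.3 and 40.1 against 30.8 and 18.5 CPM. Hypertonic replicate 2 was highest and isotonic replicate 2 lowest, with the others between, and the log2 fold change was 0.41 ± 0.52 (edgeR, adjusted p = 0.929). PSPH was at 0.031 without hypertonic replicate 2 and 0.048 without isotonic replicate 2, against 0.66 and 0.78 when replicate 1 of the hypertonic or of the isotonic group was left out.

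The serine hydroxymethyltransferases had few counts, and their hypertonic libraries disagreed. SHMT1, the cytosolic form, measured 7.94 and 18.0 CPM in hypertonic medium, against 15.6 and 13.0 CPM in isotonic medium. SHMT2, the mitochondrial form, measured 3.04 and 9.31 against 5.69 and 5.01 CPM, from 72.1 to 237 counts per library. For both genes hypertonic replicate 1 was the lowest and replicate 2 the highest of the 4 libraries, 2.27-fold and 3.06-fold apart. The log2 fold changes were -0.14 ± 0.60 for SHMT1 and 0.21 ± 0.72 for SHMT2 (edgeR, adjusted p = 0.994 and 0.993). Leaving out hypertonic replicate 1 gave 0.29 and 0.76, and leaving out replicate 2 gave -0.86 and -0.82. No difference between media was detected for either.

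Of the mitochondrial enzymes that process the folate-bound unit, MTHFD2 was the one that stood apart. MTHFD2 (ENSG00000065911, chromosome 2, 74198562 to 74217565, plus strand), the mitochondrial dehydrogenase and cyclohydrolase, measured 67.3 and 79.0 CPM in hypertonic medium, against 198 and 162 CPM in isotonic medium. The gap between the groups was wider than the gap within either, the hypertonic libraries being 1.17-fold apart and the isotonic ones 1.22-fold. Its level was 2.46-fold lower, a log2 fold change of -1.30 ± 0.39 (edgeR, unadjusted p = 0.00837, adjusted p = 0.271). Over all 15 settings the log2 fold change ran from -1.48 to -1.03. The adjusted p was 0.151 in DESeq2 and 0.347 in limma-voom, within a range of 0.00753 to 1.00 over those settings.

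Read against other genes, MTHFD2 was low but not extreme. Of all tested genes 2.01% had a log2 fold change as low or lower, and of expressed protein-coding genes 3.67% did. Among the latter, 1089 had 10 to 25 kb counted, a band around the 19.0 kb of MTHFD2 chosen after seeing the data. Their median was -0.49, and 6.70% were as low or lower.

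MTHFD1L, the mitochondrial formate-releasing synthetase and the longest member with 235 kb counted, measured 862 and 611 CPM in hypertonic medium, against 787 and 932 CPM in isotonic medium. Hypertonic replicate 1 fell between the isotonic libraries and replicate 2 below them. Its log2 fold change was -0.22 ± 0.42 (edgeR, adjusted p = 0.970), -0.53 without hypertonic replicate 1 and -0.00036 without replicate 2. In the deposited RPKM, 2.49 and 2.45 against 2.74 and 2.96, the groups of MTHFD1L did not overlap. ALDH1L2, which oxidises formyl-folate in mitochondria, measured 15.1 and 9.55 against 16.3 and 9.75 CPM, nearly the same pair in both media, with a log2 fold change of -0.08 ± 0.59 (edgeR, adjusted p = 0.996).

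MTHFD1, the trifunctional cytosolic enzyme, had the fold change nearest to 0 of the 10 members. It measured 231 and 294 CPM in hypertonic medium, against 242 and 278 CPM in isotonic medium, and the hypertonic pair enclosed the isotonic one. The log2 fold change was 0.02 ± 0.39 (edgeR, adjusted p = 0.999), and over the 15 settings it ran from -0.17 to 0.26.

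The mitochondrial and cytosolic arms did not part as groups. The mean log2(RPKM + 1) of SHMT2, MTHFD2, MTHFD1L and ALDH1L2 exceeded that of SHMT1, MTHFD1 and TYMS by 0.01 in hypertonic replicate 1. In hypertonic replicate 2 the difference was -0.43, outside the isotonic values of -0.27 and -0.22 on the other side. The hypertonic mean of this difference minus the isotonic one was 0.04 (0.26 without hypertonic replicate 2 and -0.18 without replicate 1), and it is given as a description, with no p for a score over the members.

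TYMS (ENSG00000176890, chromosome 18, 657604 to 673578, plus strand), which makes thymidylate from the folate-bound unit, measured 34.9 and 95.3 CPM in hypertonic medium, against 164 and 121 CPM in isotonic medium. All hypertonic values were below the isotonic ones, but replicate 2 lay much closer to isotonic replicate 2 than to hypertonic replicate 1, 2.73-fold below it. TYMS was 2.19-fold lower, a log2 fold change of -1.13 ± 0.52 (edgeR, adjusted p = 0.479, and 0.00285 to 1.00 over the 15 settings). The value was -0.62 without hypertonic replicate 1 and -2.04 without replicate 2, each over 1.5 times apart from the value with both. In the deposited RPKM, 1.49 and 5.62 against 8.42 and 5.66, hypertonic replicate 2 was all but level with isotonic replicate 2, and under total-count scaling the groups overlapped.

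The gene that faces TYMS stood the other way. ENOSF1, an enolase-family gene known for its RNA antisense to TYMS, lies on the minus strand and shares 3255 bases with the end of TYMS (chromosome 18, 670324 to 712676). It measured 105 and 66.8 CPM in hypertonic medium, against 35.4 and 54.7 CPM in isotonic medium. Its groups did not overlap, and hypertonic replicate 1, the lowest for TYMS, was the highest for ENOSF1. Both hypertonic libraries lay above both isotonic ones in 22.5% of all tested genes and 5.32% of expressed protein-coding genes. For ENOSF1 itself these values were as follows. The log2 fold change was 0.93 ± 0.45 (edgeR, adjusted p = 0.513), and it stayed positive over 15 settings, from 0.51 to 1.24. TYMSOS, the noncoding gene that starts next to TYMS on the minus strand, measured 4.14 and 9.55 against 5.27 and 3.77 CPM, and its groups overlapped.

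**Figure D3:**
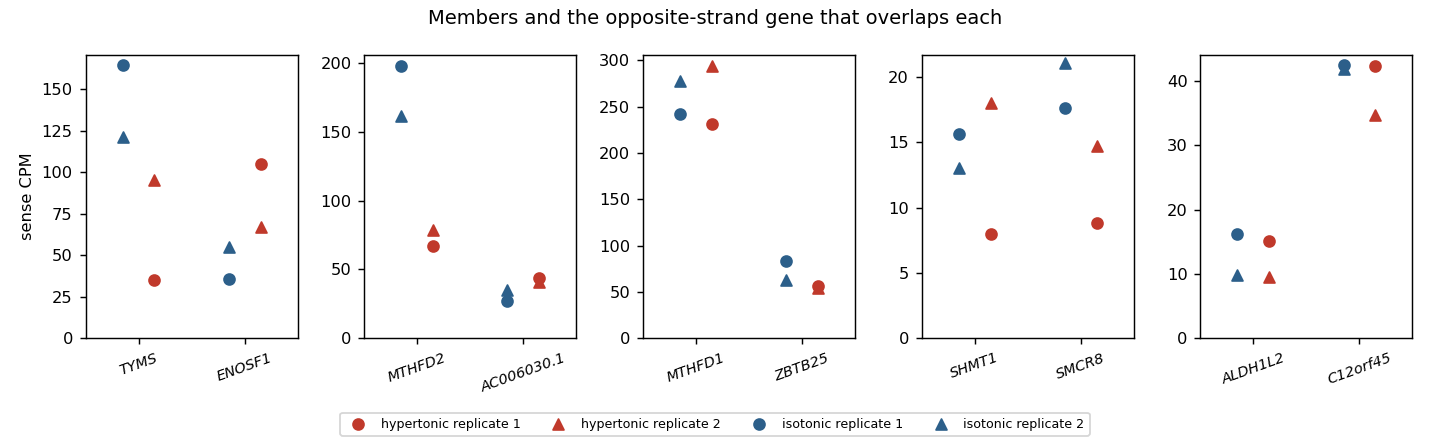
Sense CPM (linear axes from 0) of 5 members, left in each panel, and of the opposite-strand protein-coding gene overlapping each, right, by library; red is hypertonic, blue isotonic, circles replicate 1 and triangles replicate 2. TYMS and MTHFD2 are lower in hypertonic libraries, and hypertonic symbols of the facing genes ENOSF1 and AC006030.1 lie above the isotonic ones. Those of ZBTB25 and SMCR8 lie below the isotonic ones, and those of C12orf45 overlap them.

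MTHFD2 is faced by 2 protein-coding genes with differing values. AC006030.1, a protein-coding entry on the minus strand that overlaps its last 5962 bases, measured 43.8 and 41.1 CPM in hypertonic medium, against 26.8 and 34.9 CPM in isotonic medium. Its groups did not overlap, and its log2 fold change was 0.46 ± 0.45 (edgeR, adjusted p = 0.874), with 0.25 to 0.62 over the libraries left out. SLC4A5, a bicarbonate transporter gene that shares 1324 bases with the end of MTHFD2, measured 1.14 and 1.26 against 0.907 and 2.01 CPM. Its groups overlapped, and its log2 fold change was -0.27 ± 0.77 (edgeR, adjusted p = 0.992). The 2 facing genes overlap each other on the minus strand, and bases they share are left out. The AC006030.1 entry therefore counts 22401 bases and the SLC4A5 entry 2621, with 27.1 to 39.1 counts per library for SLC4A5. In all, 13 opposite-strand genes overlapped 7 of the members, and none of the 19 tested genes that overlapped a member or ended within 10 kb of one passed in edgeR's test with all libraries. Without hypertonic replicate 2 ENOSF1 passed (log2 fold change 1.22; edgeR, adjusted p = 0.026, and up to 1.00 over its settings), and without replicate 1 it was at 0.53.

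Counts on the strand opposite to each member come from separate entries of the tables. The labels mention actinomycin D, which keeps reads on their strand, for some unnamed samples. Antisense counts at MTHFD2 came to 3.29 and 1.45 CPM in hypertonic and 0.417 and 0.310 CPM in isotonic replicates 1 and 2. At TYMS they came to 10.3 and 2.51 against 0.736 and 2.27 CPM, the replicates numbered 2 being close. For both genes the hypertonic libraries were above the isotonic ones on the opposite strand and below them on the sense strand. In antisense CPM the hypertonic libraries were also above the isotonic ones at PHGDH, PSPH, SHMT2 and ALDH1L2, whose sense values overlapped between groups. At SHMT1, MTHFD1 and MTHFD1L the antisense CPM overlapped. Between the isotonic libraries of MTHFD2, replicate 1 was higher on both strands. No background for antisense CPM is given. The antisense share is the antisense count over the sum of both strands, and it therefore also moves with the sense count. For MTHFD2 it was 4.67% and 1.81% in the hypertonic and 0.210% and 0.191% in the isotonic libraries. For TYMS it was 22.7% and 2.57% against 0.445% and 1.84%, from 243 antisense counts in hypertonic replicate 1, and for PHGDH 2.64% and 2.71% against 0.162% and 0.936%. For these genes every hypertonic library was above every isotonic one, which also held for SHMT2 (19.98% and 6.32% against 0.0860% and 5.83%) and ALDH1L2 (36.5% and 26.8% against 7.66% and 20.9%).

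Those 5 were among 9 members with at least 10 antisense counts in all. The background was large: 51% of tested genes with that many antisense counts, and 58.6% of expressed protein-coding ones, were above in the same way. Over all tested genes the antisense share was 7.16% and 4.99% in the hypertonic and 2.60% and 2.74% in the isotonic libraries. The sense and antisense entries differ in the bases they count at overlapped members, so shares compare libraries for 1 gene, not genes with each other.

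SHMT1 had a share of 56.6% and 13.6% in the hypertonic and 16.1% and 16.3% in the isotonic libraries. In hypertonic replicate 1 the opposite strand held 245 counts and the gene's own strand 188. SMCR8, which points at the end of SHMT1 from the other strand, measured 8.79 and 14.7 against 17.6 and 21.1 CPM, lower in both hypertonic libraries, with a log2 fold change of -0.72 ± 0.56 that was -0.43 without hypertonic replicate 1 and -1.14 without replicate 2. PSPH, MTHFD1 and MTHFD1L also overlapped between groups, at 0.970 to 3.85%, 0.491 to 1.82% and 0.212 to 0.391% in the hypertonic libraries. PSAT1 had an antisense count of 0 in every library over 33.0 kb, which allows a share of up to 0.730% in the library with the fewest counts. Of 6215 antisense entries over 30 kb at genes with over 1000 sense counts, 44 were at 0 throughout.

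**Figure D4:**
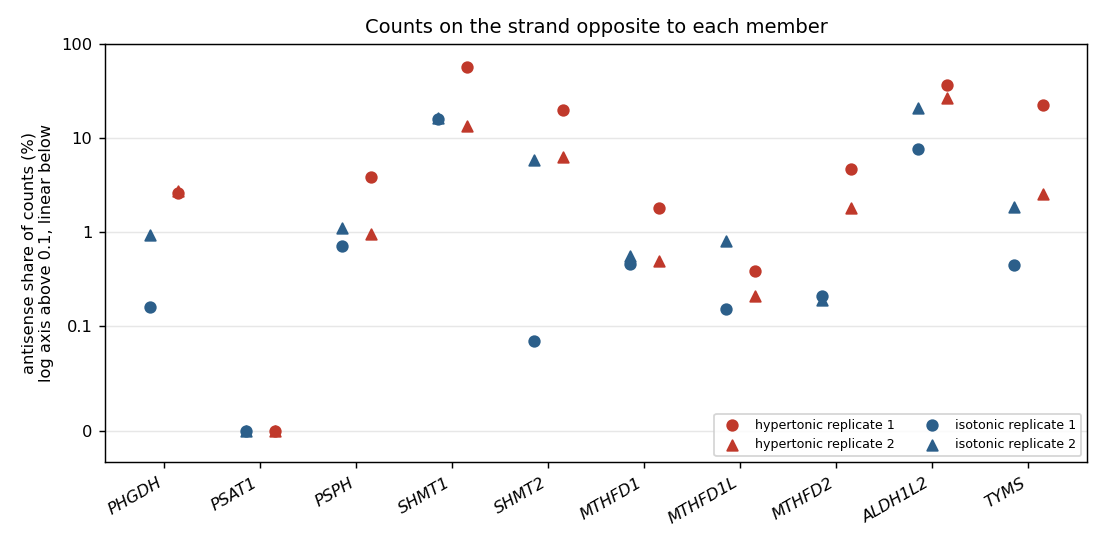
Antisense share of counts at each member in percent (log axis above 0.1, linear below) by library; red is hypertonic, blue isotonic, circles replicate 1 and triangles replicate 2. Hypertonic replicate 1 reaches 56.6% at SHMT1 and 22.7% at TYMS, and PSAT1 is at 0 in all libraries.

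Other genes of the pathway were read from 4 lists of 50 genes, 43 of which were tested. In edgeR's quasi-likelihood test 0 of 43 passed over all genes, and 2 were lower and 0 higher at an unadjusted p under 0.05. DESeq2 and limma-voom called 0 as well. The median log2 fold change was -0.08, with 25 negative and 18 positive. Hypertonic values were all lower than the isotonic ones for 9 genes and all higher for 7, beside the 17.5% and 22.5% of tested genes given above. Among expressed protein-coding genes these shares were 38.7% and 5.32%.

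Folate handling had 5 of 12 tested genes negative and a median of 0.23. SLC25A32, the carrier that brings folate into mitochondria, measured 24.7 and 51.3 CPM in hypertonic medium, against 90.8 and 114 CPM in isotonic medium, a log2 fold change of -1.43 ± 0.48 (edgeR, adjusted p = 0.320). All its hypertonic values were below the isotonic ones. FOLR1, a folate receptor, and ALDH1L1, the cytosolic counterpart of ALDH1L2, were at 1.11 ± 0.87 and 0.73 ± 0.61. FOLR1 had 2 to 16 counts per library and was at 2.31 and 0.53 without isotonic replicate 1 and 2 in turn, and ALDH1L1 was at 0.34 without hypertonic replicate 1. MTHFS, which recycles formyl-folate, was not tested, with 3.84 to 9.06 counts per library.

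In the methionine cycle and transsulfuration 5 of 9 tested genes were negative, with a median of -0.03. MTRR, which reactivates methionine synthase, measured 33.7 and 49.5 against 71.4 and 97.1 CPM, a log2 fold change of -1.02 ± 0.43 (edgeR, adjusted p = 0.437). Its groups did not overlap either. GNMT, a glycine methyltransferase, was at 1.61 ± 0.86 from under 1.5 CPM, and MAT2A, which makes the methyl donor S-adenosylmethionine, at -0.33 ± 0.53. GNMT was at 0.97 and 1.05 without replicate 1 of the hypertonic and of the isotonic group, and MAT2A at -1.34 and 0.25 without hypertonic replicate 1 and 2 in turn.

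In purine and thymidylate supply 11 of 12 genes were negative, with a median of -0.31, close to the -0.33 of expressed protein-coding genes. TK1, thymidine kinase, measured 45.7 and 36.8 against 67.1 and 59.4 CPM (-0.62 ± 0.42). DTYMK and DUT, which act on either side of TYMS in thymidylate metabolism, were at -0.78 ± 0.63 and -0.68 ± 0.55. Without hypertonic replicate 1 they were at -0.21 and -0.27, and without replicate 2 at -1.85 and -1.35. In serine and glycine use 4 of 10 tested genes were negative, with a median of 0.05. SDSL, a serine dehydratase-like gene, measured 5.70 and 8.998 against 2.11 and 3.20 CPM (1.47 ± 0.68), and GLDC and DLD of the glycine cleavage system were at 0.87 ± 0.76 and -0.58 ± 0.52. DLD was at -0.17 without hypertonic replicate 1 and -1.21 without replicate 2.

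**Figure D5:**
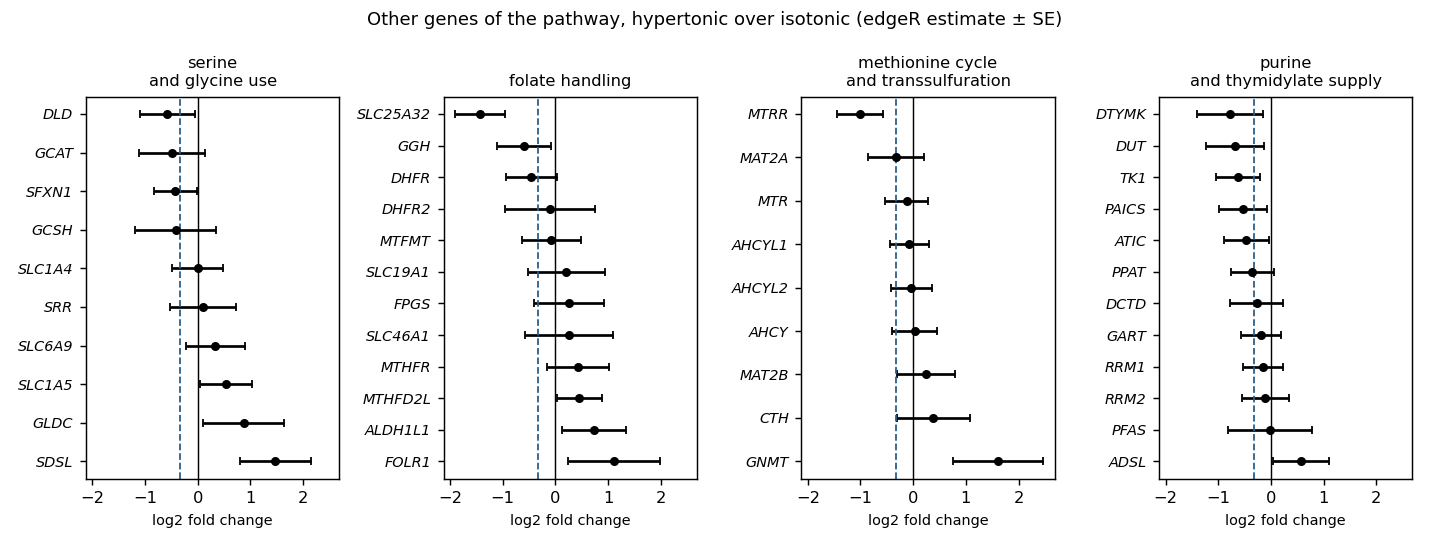
Log2 fold change, hypertonic over isotonic, of the 43 tested genes of the 4 lists, as edgeR estimates with standard errors (2 libraries per group); the dashed line is the median of expressed protein-coding genes at -0.33. SLC25A32 and MTRR are the lowest of their lists, and 11 of the 12 genes of purine and thymidylate supply lie below 0.

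Without hypertonic replicate 2, edgeR called 11 of 44 tested genes of these lists, 9 lower and 2 higher, beside 21.4% of all genes. The lower ones included SLC25A32 (-2.05), DTYMK (-1.85), MTRR (-1.32) and the purine enzymes PFAS, PAICS and ATIC, and the higher ones were CTH and MTHFD2L. With both hypertonic libraries in the fit none of these passed.

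The genes of the lists whose pattern over the 4 libraries lay nearest to that of MTHFD2 were MTRR, SLC25A32 and TK1. Their root mean square differences in centred log2 CPM were 0.31, 0.37 and 0.39, and 3.07%, 5.43% and 6.29% of all tested genes lay as near. Among the members themselves TYMS was nearest, at 0.43, and PSAT1 farthest, at 0.93.

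The 3 regulators of the route were read in the same fit. ATF4, with 7 of the 10 members among its known targets, measured 66.0 and 45.5 CPM in hypertonic medium, against 54.7 and 62.5 CPM in isotonic medium, a log2 fold change of -0.07 ± 0.42 (edgeR, adjusted p = 0.996). The 7 targets (PHGDH, PSAT1, PSPH, SHMT2, MTHFD2, MTHFD1L and ALDH1L2) had a median of -0.08, with 4 negative. NFE2L2, a redox factor that acts upstream of ATF4, measured 96.6 and 98.7 against 149 and 188 CPM (-0.79 ± 0.38; edgeR, adjusted p = 0.511), and its groups did not overlap. MYC measured 116 and 35.1 against 83.2 and 287 CPM (-1.29 ± 0.69), and it was at -0.18 without isotonic replicate 2 and -2.43 without hypertonic replicate 1.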

How the data were processed

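Bru-seq libraries of U2OS-GFP-DCP1a cells, 2 hypertonic and 2 isotonic by their titles, were compared. Tools named without a role in the submitters' processing notes are bedtools 2.16.2, STAR 2.5.3a, Bowtie2 2.3.3 and CASAVA 1.8.2, and the genome builds named there are GRCh38 and hg38; which tool counted reads is not stated. The authors deposited an expected count per gene and strand, and an RPKM value equal to that count divided by the bases counted and by 1 constant per library; the tables have no header, and both units were read from the values. A gene's own strand was taken from GENCODE release 29 by Ensembl identifier. Bases shared by same-strand genes are outside the deposited entries.

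Expected counts were rounded and the sense counts of 21238 genes passing the default expression filter were fitted with edgeR 4.0.16 in R 4.3.3 (TMM factors 0.947, 1.22, 0.974 and 0.887, quasi-likelihood test, Benjamini-Hochberg threshold 0.05). The standard error is the log2 fold change divided by the square root of F, and CPM uses effective library sizes. The fit was run on simulated counts with equal spread in both groups, so that run does not cover groups of unequal spread. Alternatives were DESeq2 1.42.0, limma-voom 3.58.1, other scalings and filters, log2(RPKM + 0.1) and log2(RPKM + 1) in limma, a replicate block, and each library left out. Floors (3 counts) cover counting error only, while SDs and standard errors rest on the spread between libraries. Pseudogenes named after the members, 16 in all, held at most 0.502% of the parent gene's counts.

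Named genes were all members, the 3 smallest p-values of each pathway list, the regulators and overlapping or neighbouring genes, not all of which are described. Members and lists were chosen with earlier results of these data known. Figures used matplotlib 3.10.9 and pandas 2.3.3.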

Additional observations from a re-analysis of the deposited data

How the results depend on the processing

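With 2 libraries per group and hypertonic libraries that differed widely, only large and repeated differences could be told from the spread. The count of genes called was 0, but 731 in DESeq2, 916 without a filter and 384 with the replicate block; leaving out 1 library gave 0 to 4918. Members called were 0 in every setting except 2 without hypertonic replicate 2 (range 0 to 2), and genes of the pathway lists called ranged from 0 to 11. The members' median log2 fold change of -0.11 was 0.11 by total count and 0.075 by upper quartile, and ranged from -0.49 to -0.027 over the libraries left out; without MTHFD2 and TYMS, chosen after seeing the data, it was -0.031. The median of the pathway lists was 0.17 and 0.092 under the same scalings and -0.30 to -0.022 with a library left out. Members with non-overlapping lower groups numbered 1 by total count, 3 on both log2(RPKM) scales, where MTHFD1L was added, and 3 to 6 with a library left out, where fewer libraries are compared. The difference between the arms ranged from -0.18 to 0.26. The cause of these changes was not tested.

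The replicate numbers share no source in the labels, and deviations of same-numbered libraries correlated at 0.039 over genes; with the replicate block 0 members were called, MTHFD2 was at -1.30 and TYMS at -1.29. Log2 fold changes near 0 changed sign. MTHFD1 was at -0.020 with RLE and DESeq2 and -0.043 without a filter. SHMT1 was at 0.14 by total count and 0.028 by upper quartile. ALDH1L2 was at 0.085 and 0.12 under those scalings and 0.025 with 50 counts required. SHMT2 was at -0.0042 in limma-voom and -0.00063 with the block. ATF4 was at 0.12, 0.13 and 0.029 by total count, by upper quartile and with 50 counts required. C12orf45 was at 0.071 and 0.063 under the 2 scalings. With a library left out the ranges were -0.17 to 0.14 for MTHFD1, -0.86 to 0.29 for SHMT1, -0.48 to 0.32 for ALDH1L2, -0.82 to 0.76 for SHMT2, -0.61 to 0.77 for PSAT1, -0.40 to 0.17 for ATF4, -1.34 to 0.25 for MAT2A and -0.78 to 0.36 for SLC4A5.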

Other observations

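Further protein-coding genes on the strand facing a member gave these values. ZBTB25, a zinc finger gene whose entry shares 14352 bases with MTHFD1, measured 56.3 and 54.1 CPM in hypertonic medium, against 82.9 and 62.5 CPM in isotonic medium. Its groups did not overlap, and its log2 fold change was -0.40 ± 0.41 (SE; edgeR, adjusted p = 0.882), -0.21 without isotonic replicate 1 and -0.63 without replicate 2. C12orf45, whose annotated gene shares 54414 bases with ALDH1L2, measured 42.3 and 34.8 against 42.5 and 42.0 CPM, more than ALDH1L2 in each library. Its counted entry ends at position 105060827, before the annotated end at 105074197, and so shares fewer bases. NDUFA4L2, a mitochondrial subunit gene that ends within SHMT2, measured 1.01 and 0.550 against 0.147 and 0.155 CPM, from 3 to 24 counts per library, a log2 fold change of 2.34 ± 0.86 (edgeR, unadjusted p = 0.0235, adjusted p = 0.362).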
